A study of Homo sapiens with 10 samples.

Results

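H3K9ac islands of immortalized human astrocytes were compared between cells given doxycycline for 2 days to express IDH1-R132H and the same line without doxycycline. These are 2 of the 10 samples of the series, 1 library on each side. Stretches of chromosomes 1 to 22 that were called as enriched in either library entered the comparison. Left out were 1798 islands of the deeper 2-day library, as set out below. Islands of the 2 lists that overlapped or touched were merged into regions, and reads were divided by library size relative to the control library.

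The cells are a fetal astrocyte line immortalised with SV40 (IHA). The 2d-Dox cells are labelled with the genotype IDH1-R132H and received doxycycline at 1 µg/ml, and the noDox cells are labelled WT IDH1 and received none. The series also holds H3K27ac and H4K16ac libraries of both kinds of cells, a 7-day doxycycline time for each mark, and a negative control made with the HRP-linked secondary antibody in noDox cells. No library came from cells treated with doxycycline but lacking IDH1-R132H, so the drug, the added days and the mutant enzyme cannot be told apart. All libraries come from 1 line. The labels mention no spike-in DNA, and a shift of the mark across the whole genome therefore cannot be told apart from library size. The identity of the cells was not checked on marker genes, because no gene annotation of the build used, hg19, was at hand, and loci are given by position.

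H3K9ac is acetylation of lysine 9 on histone H3. It is laid down chiefly by the acetyltransferases GCN5 and PCAF, is removed by histone deacetylases, and is found at active promoters and many enhancers. The same lysine carries methyl groups in silent chromatin, so acetylation and methylation exclude each other there. IDH1-R132H, found in many gliomas, turns 2-oxoglutarate into 2-hydroxyglutarate, which inhibits TET enzymes and the JmjC histone demethylases. CUT&RUN uses an antibody bound in permeabilised cells to bring a nuclease to the mark, and the fragments cut free are sequenced. An island is a stretch that SICER, a caller for broad marks, listed as holding more antibody reads than the HRP control predicts.

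The 2-day library was 4.17 times and the noDox library 3.05 times the size of the HRP library, so the 2-day library was 1.37 times as deep. The 2-day list held 107516 islands. To reduce the difference in depth, 2-day islands were kept only if their count, scaled to the noDox library, would still have been listed there. This took away 1798 islands (1.67%) and left 105718, against 88147 in the noDox list. The kept islands have the boundaries that were called in the deeper library, so numbers and lengths of islands are not at equal depth, and the part of depth in their differences was not tested. Each ratio below is 2-day over noDox on the log2 scale, so that 1 stands for a 2-fold higher value. Intervals are 95% intervals. Those of ratios of reads cover counting error only, and since reads were amplified by PCR without molecular identifiers, they are not independent molecules. Those of medians and of shares of islands, regions or pairs treat these as independent, although all come from the same 2 libraries. With 1 library a side there is no replicate error and no test.

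The amount of H3K9ac signal in islands was nearly equal in the 2 libraries, while its division into islands was not. Islands held 1860230 reads per unit of library size at 2 days and 1868190 in noDox cells, a ratio of 0.996. After subtraction of the HRP reads in the same islands the ratio was 1.00. Islands covered 321 Mb at 2 days and 312 Mb in noDox cells. The reads of all islands together were 3.08 times the HRP reads at 2 days and 3.06 times in noDox cells. Signal per kb of island was also close, at 5.79 reads per unit of library size at 2 days and 5.99 in noDox cells.

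The larger number of islands at 2 days lay in the short ones. The median island was 2400 bp long at 2 days and 3000 bp in noDox cells. Islands of 600 bp or less numbered 2332 at 2 days and 686 in noDox cells, a ratio of 3.40. Between 600 and 1000 bp there were 7988 at 2 days against 3205 in noDox cells, and between 1000 and 2000 bp there were 32914 against 20223. From 2000 to 4000 bp the numbers were nearly equal, 40513 at 2 days and 39631 in noDox cells. Longer islands were fewer at 2 days: 18016 against 20061 between 4000 and 8000 bp, and 3711 against 4089 between 8000 and 16000 bp. The ratio of island numbers thus fell with each step of length up to the 4000 to 8000 bp class and stayed just under 1 beyond it.

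**Figure D1:**
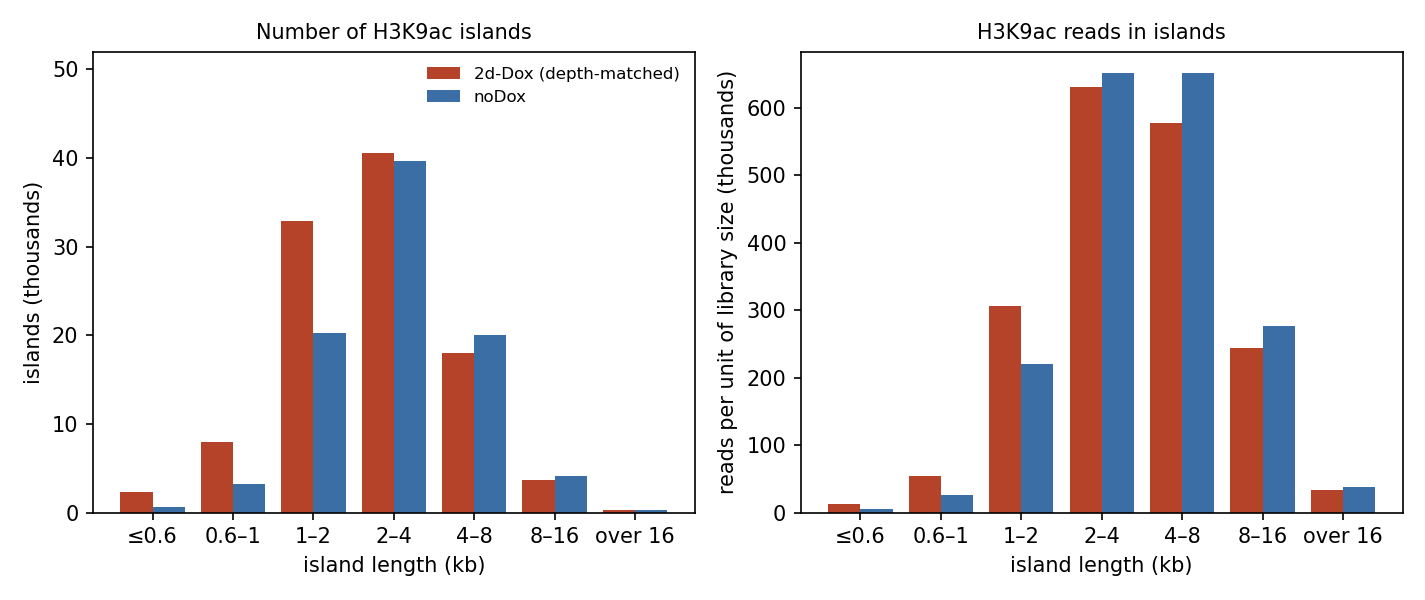
Number of H3K9ac islands (left, axis in units of 1000) and antibody reads in them per unit of library size (right, in the same units) by island length in kb, for the depth-matched 2d-Dox list and the noDox list, 1 library each. The 2d-Dox list holds more islands of up to 2 kb and slightly fewer of 4 to 16 kb.

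The short islands of the 2-day list were somewhat thinner than those of the noDox list. Islands of 600 bp or less held 9.57 reads per kb and unit of library size at 2 days and 12.2 in noDox cells. In the 4000 to 8000 bp class the values were 5.86 at 2 days and 5.91 in noDox cells. Islands without any HRP read made up 20.0% of the 2-day list and 14.1% of the noDox list.

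Long islands were also cut differently. Of 56853 regions with an island in both lists, 43750 had 1 island in each. In 6234 regions, 2 or more islands at 2 days stood against 1 island in noDox cells, and in 3779 the reverse held. Where 1 noDox island faced several 2-day islands, the 2-day islands covered 73.1% of the region and the noDox island 81.7%. In the reverse class the 2-day island covered 81.6% and the noDox islands 74.8%. Gaps between divided islands are covered by the single island of the other list. Lower cover on the divided side thus follows in part from how the classes were drawn. The median log2 ratio of reads was -0.10 where the 2-day islands were the divided ones and -0.046 in the reverse class. Per kb of island it was 0.075 and -0.16 in the same order. The part of the class definition in these ratios was not tested.

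Most islands of either list had a partner in the other, and these carried most of the reads. An overlap of at least 1 bp with a noDox island was found for 67157 of the 105718 2-day islands, or 63.5% (63.2 to 63.8), which held 78.2% of the 2-day reads. In the other direction, 73.0% (72.7 to 73.3) of noDox islands overlapped a 2-day island and held 83.6% of the noDox reads. The stretches shared base by base came to 173 Mb, which is 53.9% of the length covered at 2 days and 55.6% of that covered in noDox cells. Islands without a partner were short and low in reads, with medians of 2000 bp and 38 reads at 2 days, and of 2400 bp and 35 reads in noDox cells.

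Regions that were listed in only 1 library were many in number but nearly all near the lower end of the reads. The 2-day list alone had 37671 regions, holding 21.2% of its reads, and the noDox list alone had 23172, holding 909111 of its 5695984 reads. Among 2-day regions with under 50 reads expected at the noDox library size, 57.4% had no noDox island. With 50 to 100 expected reads 16.3% had none, and with 100 to 200 it was 1.91%. None of the 3317 2-day regions with 200 or more expected reads lacked a noDox island, which allows a share of up to 0.111%. Among noDox regions, the shares without a 2-day island were 52.4%, 30.0% and 5.12% in the same classes of expected reads, here at the 2-day library size. Of 7396 noDox regions with 200 or more expected reads, 8 had no 2-day island (0.108%). Because the 2-day library is the deeper one, the same class of expected reads holds thinner regions in noDox cells, so the shares of the 2 directions are not on 1 footing.

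At 100 or more expected reads, 199 of 13729 2-day regions (1.45%, 1.26 to 1.66) lacked a noDox island, and 832 of 23505 noDox regions (3.54%, 3.31 to 3.78) lacked a 2-day island. Both sets stood less far above the control than regions with a partner. The 199 had a median of 1.93 times the HRP reads, against 3.15 for 2-day regions of the same depth with a partner. The 832 had a median of 1.84 times, against 3.19 for noDox regions with a partner.

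The 2-day-only region with the most reads lay at 17p13.2 (chr17:4115201-4124600). It held 271 reads at 2 days, where 198 would have been expected in the noDox library, over 53 HRP reads, which is 1.23 times the control. At 7 days, in a library 1.60 times the size of the noDox one, the region held 343 reads. At 9p24.1 (chr9:5794001-5806200) the 2-day island held 235 reads at 2.45 times the control. The region at 9p22.1 (chr9:19059201-19071000) held 229 reads over 7 HRP reads, 7.84 times the control, and so stood farthest above background among these 5. The other 2 were 10q26.13 (chr10:126686601-126696600), with 226 reads at 2 days, and 5q13.2 (chr5:72350801-72362600), with 225. All 5 overlapped an island at 7 days, and all 5 carried H4K16ac islands both at 2 days and in noDox cells. Both traits were common among the 3753 2-day-only regions with at least 50 reads at noDox depth. Of these, 72.4% had an island at 7 days, and H4K16ac islands lay in 72.0% at 2 days and 68.7% in noDox cells.

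The noDox-only region with the most reads lay at 6p22.3 (chr6:21021201-21029200), with 174 reads in noDox cells over 32 HRP reads, 1.78 times the control. It had an island again at 7 days, with 248 reads. At 21q21.3 (chr21:30003201-30010800) the noDox island held 173 reads, and at 7 days 51 reads were listed there. At 3p26.1 (chr3:4780201-4788800) the noDox island held 171 reads and no island was listed at 2 or 7 days. The remaining 2 were 5q31.1 (chr5:131012401-131025200), with 161 noDox reads, and 6p21.2 (chr6:37516401-37527800), with 152. H3K27ac islands were listed at 2 days in 4 of these 5 regions, all but 5q31.1. Among regions with at least 50 reads at noDox depth, the share was 41.4% of 4144 noDox-only ones and 76.9% of 40420 shared ones. At 6p22.3 the H3K27ac island held 503 reads at 2 days, against 629 in noDox cells. These are counts before scaling, and the 2-day H3K27ac library was 0.791 times the size of the noDox one.

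Among regions listed in both libraries, summed H3K9ac reads were slightly lower at 2 days in the median and spread widely to both sides. Over 40420 shared regions with at least 50 reads at noDox depth in either library, the median log2 ratio was -0.12 (-0.12 to -0.11), with quartiles at -0.53 and 0.28. At least 2-fold higher at 2 days were 2160 regions (5.34% of those compared), and at least 2-fold lower were 4315 (10.7%). Measured from the median, the shares were 7.08% higher and 8.48% lower. Per kb of island they were 0.614% higher and 0.604% lower. Island length was called from the same reads, so dividing by it can take a gain or loss out of the ratio. How far it does so was not tested, and values per kb here and below cannot show that the mark was unchanged. The spread narrowed as reads increased. Its SD was 0.74 at 50 to 100 mean reads (20177 regions), 0.48 at 100 to 200, 0.30 at 200 to 400 and 0.20 at 400 or more. None of the 363 regions with 400 or more reads was past 2-fold, and they lay between -0.71 and 0.51.

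The regions past 2-fold were regions whose called length differed between the libraries. Of the 2160 higher ones, 1907 (88.3%) were also at least 2-fold longer at 2 days, with median called lengths of 5600 bp at 2 days and 2000 bp in noDox cells. Their signal per kb of island was not higher: 5.02 reads per unit of library size at 2 days and 5.67 in noDox cells, with a median log2 ratio per kb of -0.17. Of the 4315 lower ones, 3593 (83.3%) were at least 2-fold shorter, with medians of 1800 bp at 2 days and 4800 bp in noDox cells. Here the median ratio per kb was 0.092. Called length stayed within 1.2-fold in 8 of the higher regions and 28 of the lower ones. Among the 33945 regions between these, it did so in 12998, and 1840 (5.42%) were at least 2-fold shorter at 2 days. Reads were summed over the called length, so the ratios of reads and of length are linked by construction. Reads outside the listed islands are in no file used here, so what remained in a stretch that was no longer called is not known.

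**Figure D2:**
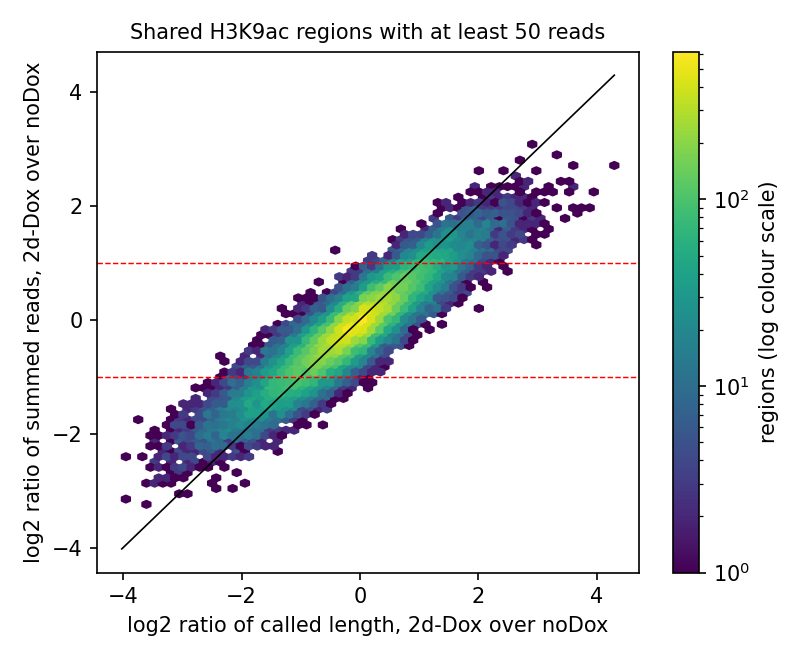
Log2 ratio of summed H3K9ac reads against the log2 ratio of called length, 2d-Dox over noDox, for 40420 shared regions with at least 50 reads (colour: number of regions, log scale). The solid line marks equal ratios and the dashed lines 2-fold. Regions past 2-fold in reads lie along the line, that is, with a different called length.

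The region with the highest interval lay at 2p13.1 (chr2:74422801-74434800). It held 325 reads over 12000 bp at 2 days, against 28 over 1600 bp in noDox cells, a log2 ratio of 3.08 (2.53 to 3.70). Per kb of island the ratio was only 0.18. The same contrast was seen at 15q26.1 (chr15:90124801-90140600), with 349 reads at 2 days and 37 in noDox cells, a ratio of 2.79 and of 0.066 per kb. At 1p31.1 (chr1:78025201-78035600) 224 reads at 2 days stood against 22 in noDox cells, a ratio of 2.90, and per kb the 2-day library was lower at -0.48. At 18q11.2 (chr18:21477001-21493800) the counts were 308 at 2 days and 36 in noDox cells. The fifth region, at 20q13.31 (chr20:55040201-55052200), was the one of the 5 with the largest ratio per kb. It held 293 reads at 2 days and 34 in noDox cells, a ratio of 2.65 in sums and of 0.65 per kb. In all 5 the 2-day islands stood between 1.39 and 2.93 times the control, under the 2-day list's median of 3.36. That median is mostly over shorter islands. The reads of all 2-day islands of 8000 to 16000 bp together were 2.83 times the HRP reads, a value that 20q13.31 exceeded.

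The region with the lowest interval lay at 17p11.2 (chr17:17955601-17962800). It held 21 reads over 600 bp at 2 days, against 145 over 7200 bp in noDox cells, a log2 ratio of -3.24 (-3.98 to -2.57). The noDox island there was only 1.40 times the HRP control, and per kb the 2-day value was higher, at 0.34. At 3q25.1 (chr3:152043601-152059200) the counts were 42 at 2 days and 241 in noDox cells, a ratio of -2.97 and of -0.50 per kb. This region had no H3K9ac island at 7 days. Its H3K27ac reads were 621 at 2 days and 2367 in noDox cells, with a 2-day library 0.791 times the size of the noDox one. The next 3 were 7q21.2 (chr7:92234801-92248400) with 35 reads at 2 days and 206 in noDox cells, 10p13 (chr10:17034401-17042600) with 24 and 151, and 1q42.13 (chr1:229788201-229801200) with 22 and 141. In all 5 the noDox island stood between 1.40 and 1.88 times the control, under the noDox list's median of 3.28. That median is mostly over shorter islands. The reads of all noDox islands together were 2.83 times the HRP reads at 4000 to 8000 bp and 2.92 times at 8000 to 16000 bp.

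A small set of regions differed in reads per kb as well as in sum. Among the 2160 higher regions, 43 were also at least 1.5-fold higher per kb, and among the 4315 lower ones, 202 were also at least 1.5-fold lower. These sets were drawn up after the values had been seen. Beside 20q13.31, the higher set included 21q22.12 (chr21:35980601-35989000), with 211 reads at 2 days and 37 in noDox cells, 2.06 in sum and 0.74 per kb. It also held 2q14.3 (chr2:128061401-128070000), with 223 reads at 2 days and 40 in noDox cells, 2.03 in sum and 0.63 per kb. The lower set included 4p15.33 (chr4:13477401-13488200), with 43 reads at 2 days and 236 in noDox cells, -2.91 in sum and -0.74 per kb. It also held 5q22.2 (chr5:112308201-112317800), with 37 reads at 2 days and 196 in noDox cells, -2.86 in sum and -0.98 per kb. The first of these 2 lower regions had 397 reads at 7 days, a ratio of 0.070 over noDox, and the second had no island at 7 days.

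Where an island kept its boundaries, H3K9ac reads differed little. Boundaries were called from the same reads, so choosing like boundaries favours pairs with like reads. How far this narrows the ratios was not tested. Pairs of islands that covered at least 80% of each other numbered 9346, so that called length could differ only slightly within a pair. Their median log2 ratio was -0.070 (-0.077 to -0.063), with quartiles at -0.27 and 0.13, and -0.057 per kb of island. Of these pairs 3 were at least 2-fold higher at 2 days (0.0321%) and 22 at least 2-fold lower (0.235%). After subtraction of the scaled HRP reads the shares were 1.57% higher and 3.95% lower, and with 50% in place of 80% reciprocal overlap they were 0.879% and 2.72%. Among the 2984 pairs with at least 100 reads none was past 2-fold, which allows a share of up to 0.124% in either direction, and the ratios ran from -0.89 to 0.97. The counting interval lay above 0 in 196 of them (6.57%) and below 0 in 402 (13.5%). In the 621 pairs with equal start and end the median was -0.11.

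**Figure D3:**
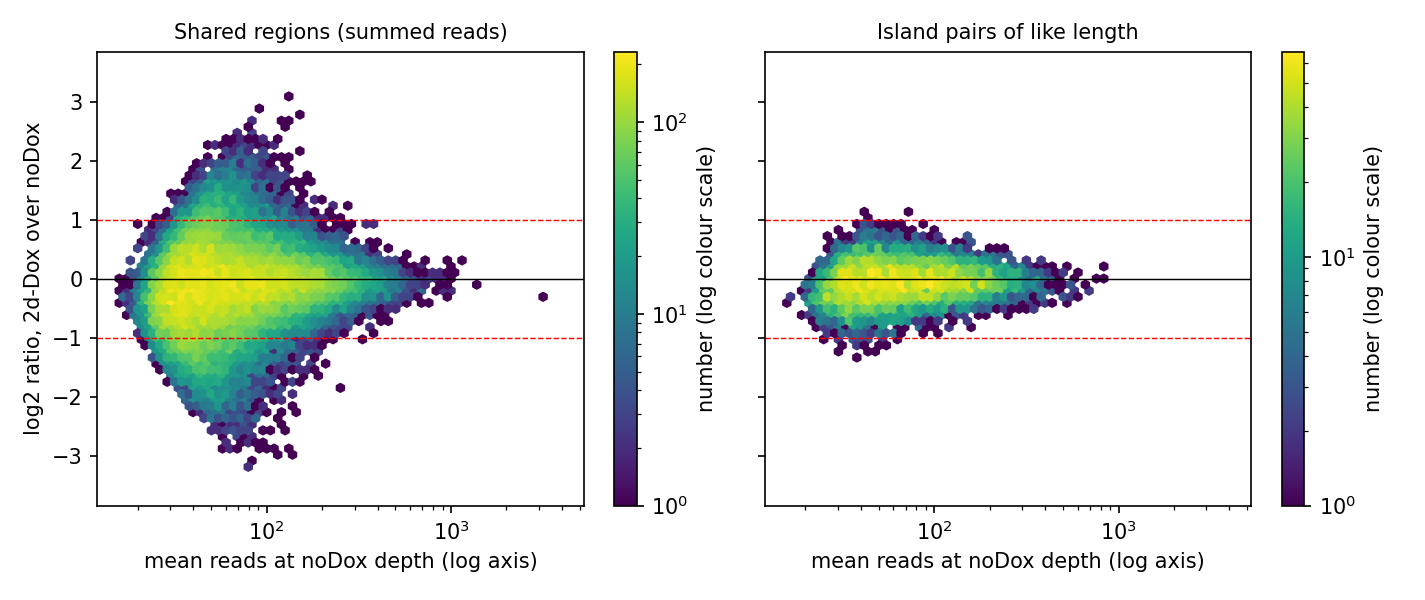
Log2 ratio of H3K9ac reads, 2d-Dox over noDox, against mean reads at noDox depth (log axis) for 56853 shared regions (left) and 9346 island pairs of like length (right); colour gives their number on a log scale and dashed lines mark 2-fold. The spread is wide in regions of few reads, narrows with reads, and is much smaller in pairs of like length.

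The pair with the highest interval lay at 10q25.2 (chr10:114185401-114191400 in the 2-day list). Its island held 156 reads at 2 days, or 114 at noDox depth, against 58 in noDox cells, a log2 ratio of 0.97 (0.53 to 1.44) and of 0.65 per kb, since the 2-day island was 6000 bp and the noDox island 4800 bp long. The island stood 6.23 times above the control at 2 days and 3.17 times in noDox cells. No H3K27ac island was listed there, while H4K16ac held 321 reads at 2 days and 138 in noDox cells. The 2-day H4K16ac library was 1.22 times the size of the noDox one. At 12q13.2 (chr12:56318801-56322200) the pair held 261 reads at 2 days and 111 in noDox cells, a ratio of 0.78 (0.46 to 1.11). Here H3K27ac was lower, with 706 reads at 2 days and 1401 in noDox cells, in a 2-day library 0.791 times the size of the noDox one. At 1p34.1 (chr1:45272201-45278000) the H3K9ac counts were 257 at 2 days and 115 in noDox cells, a ratio of 0.71. At 2p16.3 (chr2:48754601-48760000) they were 185 and 80, and at 4q25 (chr4:108639801-108643400) 170 and 73, with the 2-day count first in both. The 5 pairs thus lay between 0.71 and 0.97 in reads and between 0.49 and 0.78 per kb. Their 7-day ratios over the same noDox library count each 7-day island in full. They were 0.15 at 10q25.2, 2.296 at 12q13.2, 1.78 at 1p34.1, -0.048 at 2p16.3 and 0.44 at 4q25. In these sums 1 of the 5 lay on the other side of 0. The 7-day island was 23000 bp long at 12q13.2 and 16200 bp at 1p34.1, against 3400 and 5000 bp in noDox cells. At 2p16.3 it was 3000 bp against 4600 bp. The 7-day ratios were not taken per kb, so their sides of 0 may depend on called length.

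The pair with the lowest interval lay at 2q23.3 (chr2:153379601-153384600). Its island held 103 reads at 2 days, or 75.3 at noDox depth, against 139 in noDox cells, a log2 ratio of -0.89 (-1.27 to -0.51). It stood 2.06 times above the control at 2 days and 3.80 times in noDox cells. The 7-day island held 177 reads, a ratio over noDox of -0.33. At 4q13.3 (chr4:71872601-71876200) the counts were 84 at 2 days and 114 in noDox cells, a ratio of -0.89 and of -0.60 per kb, and at 9p24.3 (chr9:682601-687000) 156 at 2 days and 195 in noDox cells, a ratio of -0.77. The last 2 pairs lay at 16q12.1 (chr16:48277801-48281400), with 120 reads at 2 days and 153 in noDox cells, and at 10q26.12 (chr10:122232401-122238600), with 155 and 190. Per kb the 5 lay between -0.83 and -0.48. In each of these 5 pairs the 7-day ratio over the same noDox library was also below 0, between -0.45 and -0.21. The pairs were picked as lowest against that library, so a noDox count that happened to be high lowers both ratios. The share of all like-length pairs below 0 at 7 days was not computed.

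The regions richest in H3K9ac differed little. The largest, at 2p22.2 (chr2:36571001-36700800), spanned 129800 bp and held 3954 reads at 2 days, or 2889 at noDox depth, against 3460 in noDox cells, a log2 ratio of -0.26 (-0.33 to -0.19). Its 2-day reads lay in 6 islands and its noDox reads in 4. At 15q26.1 (chr15:93419401-93475600) the counts were 1748 at 2 days and 1373 in noDox cells, a ratio of -0.10, and at 9p21.3 (chr9:21545801-21596600) 1234 at 2 days and 1072 in noDox cells, a ratio of -0.25. Both remaining ones lay at 17p11.2. The first of them (chr17:17820801-17856400) was at -0.19, with 1275 reads at 2 days and 1062 in noDox cells. The second (chr17:16950001-17017800) was the only one of the 5 above 0, at 0.27 (0.16 to 0.38), with 1738 reads at 2 days and 1054 in noDox cells.

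Along the chromosomes, the share of H3K9ac reads was higher at 2 days on several of the smaller chromosomes, among them the gene-dense 19 and 22. The log2 ratio of shares was 0.13 (0.12 to 0.14) for chromosome 22, with 1.90% of reads at 2 days and 1.73% in noDox cells. It was 0.11 for chromosome 19, 0.070 for chromosome 20, 0.060 for chromosome 17 and 0.058 for chromosome 16. The lowest values were -0.055 for chromosome 4, -0.046 for chromosome 13 and -0.045 for chromosome 18. In like-length pairs the median ratio was highest on chromosome 19, at -0.0034, and lowest on chromosome 18, at -0.13, but on chromosome 22 it was -0.072, no higher than in all pairs. The share of covered length on chromosome 22 was higher at 2 days by a like amount, with a log2 ratio of 0.13. Its reads per kb had a log2 ratio of -0.046.

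**Figure D4:**
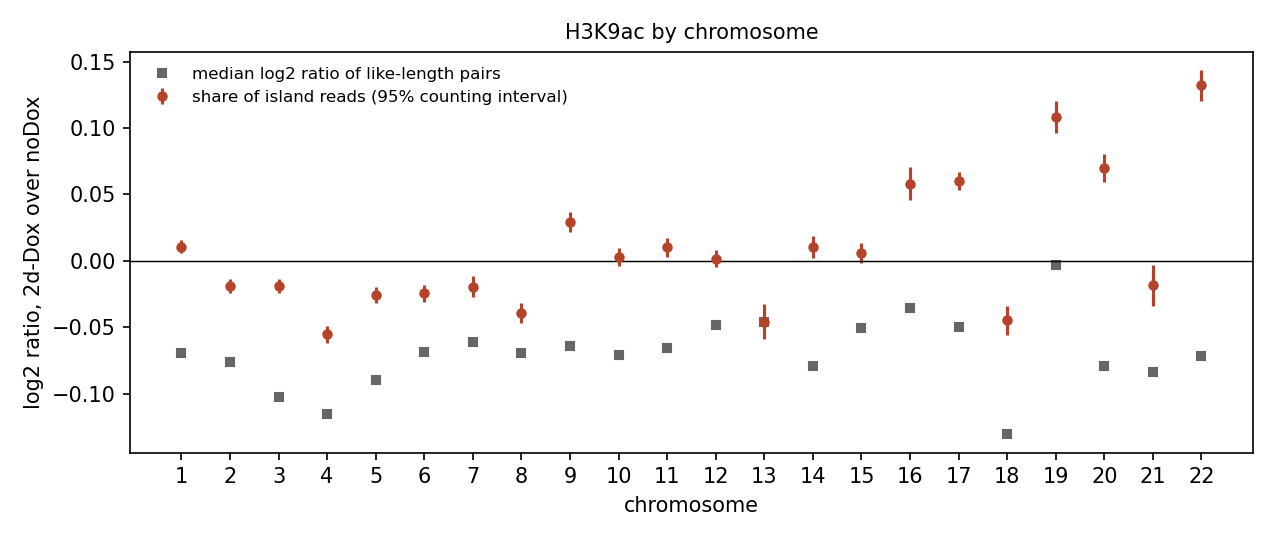
Log2 ratio, 2d-Dox over noDox, of each chromosome's share of H3K9ac island reads (circles, bars are 95% counting intervals) and the median log2 ratio of its like-length island pairs (squares), for chromosomes 1 to 22. The shares of chromosomes 16, 17, 19, 20 and 22 are above 0, and the squares lie below 0 on every chromosome.

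Giemsa stain divides chromosomes into light bands, which are rich in genes, and bands of increasing darkness, the darkest of which are poor in them. Light bands held 56.8% of H3K9ac reads at 2 days and 55.8% in noDox cells, a log2 ratio of 0.026. Bands of the 2 darkest classes held 18.7% at 2 days and 19.8% in noDox cells, a ratio of -0.082 (-0.085 to -0.078). Single bands followed with scatter: the share was higher at 2 days in 198 of 354 light bands (55.9%) and in 38 of 148 dark ones (25.7%). Like-length pairs had medians of -0.060 in light bands and -0.094 (-0.11 to -0.073) in dark bands. The other marks went the opposite way in dark bands. H4K16ac had 24.9% of its reads there at 2 days and 20.3% in noDox cells, a ratio of 0.29, and H3K27ac had 17.9% at 2 days and 17.1% in noDox cells, a ratio of 0.067. These values use all islands of those marks as deposited, and the difference between marks has no replicate test.

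Over 683 bands with at least 1000 reads in both lists, the SD of the log2 ratio of shares was 0.15, and no band was past 2-fold. The ratio of shares followed the ratio of covered length (Pearson r = 0.96 across the 683 bands, which share both libraries), and the SD of reads per kb was 0.046. The highest bands were 22q13.33, with 3756 reads at 2 days and 1756 in noDox cells (0.65), and 20q13.31, with 2103 at 2 days and 1015 in noDox cells (0.60). They were followed by 15q11.2 (0.42), 13q22.3 (0.39) and 8q24.12 (0.34). In 22q13.33, at the end of the chromosome, there were 55 islands at 2 days against 30 in noDox cells, and the 7 like-length pairs had a median of 0.34. Band 20q13.31 also holds the region named above that was higher both in sum and per kb.

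The lowest bands were 13q13.3, with 1300 reads at 2 days and 1546 in noDox cells (-0.70), and 13q12.3, with 1741 at 2 days and 1866 in noDox cells (-0.55). Next were 7q31.32 (-0.49), 14q31.1 (-0.48) and 3q11.1 (-0.48). In 13q13.3 the number of islands was 26 at 2 days and 31 in noDox cells, but their length was 59000 bp against 100000 bp. Reads per kb there were slightly higher at 2 days, with a log2 ratio of 0.059. Neighbouring regions up to 50 kb apart showed almost no common direction (Pearson r = 0.044 over 33152 neighbouring pairs, all from the same 2 libraries).

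Bands that hold well known loci mostly differed little as a whole. The values are for whole bands of several Mb, not for the genes. The HOX clusters, arrays of developmental transcription factors, lie in 7p15.2, 17q21.32, 12q13.13 and 2q31.1, where the log2 ratios of shares were 0.011, 0.013, 0.028 and 0.053. Band 17q21.31, which holds the astrocyte filament gene GFAP, was at 0.12, with 28812 reads at 2 days and 19497 in noDox cells, and 18q11.2, with the water channel gene AQP4, was at -0.095. For the nuclear factor I genes, glial regulators, 1p31.3 (NFIA) was at -0.085, and 9p23 and 9p22.3 (NFIB) were at 0.22 and -0.082. The 9p23 value went with 96 islands at 2 days against 64 in noDox cells. Band 2q34, which holds IDH1 itself, was at 0.12, with 6473 reads at 2 days and 4374 in noDox cells. Band 9p21.3 (CDKN2A, a cell cycle inhibitor gene) was at -0.17, 7p11.2 (EGFR, a growth factor receptor) at -0.16, 8q24.21 (MYC) at -0.13 and 4q12 (PDGFRA) at -0.065, against a median of -0.011 over the 683 bands. The replication histone bands 6p22.2 and 6p22.1 were at 0.045 and -0.072. Both major histocompatibility bands were above 0, at 0.093 for 6p21.33 and 0.050 for 6p21.32. The protocadherin band 5q31.3 was at -0.059, and the gene-poor bands 2q22.3 and 13q21.33 were at -0.072 and -0.041. The zinc finger band 19p12 had the lowest value, -0.74, on only 125 reads at 2 days and 153 in noDox cells.

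The median ratios of H3K27ac and H4K16ac had the same sign where H3K9ac was higher and where it was lower. Where H3K9ac was at least 2-fold higher at 2 days, the median log2 ratio of H3K27ac was -0.15 (-0.18 to -0.13, 1057 regions with the mark in both libraries). Where H3K9ac was at least 2-fold lower it was -0.11 (-0.12 to -0.095, 2625 regions), and between these it was -0.10. Over all shared H3K27ac regions it was -0.12. For H4K16ac the medians were 0.24 in higher, 0.22 in lower and 0.14 in the remaining H3K9ac regions, against 0.16 over all its shared regions. Across regions the H3K9ac ratio had a Pearson r of -0.022 with that of H3K27ac (29779 regions) and of -0.0075 with that of H4K16ac (23509 regions). These points share the libraries, and the size of each mark's library relative to noDox differs.

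The marks did differ in how often they were present. At 2 days an H3K27ac island lay in 55.0% of the higher, 64.8% of the lower and 79.9% of the remaining H3K9ac regions. In regions of the 2-day list only it lay in 31.8%, and in those of the noDox list only in 41.4%, both counted over regions with at least 50 reads at noDox depth. H4K16ac islands were listed at 2 days in 81.6% of the higher, 66.6% of the lower and 73.9% of the remaining regions. H3K9ac regions that were listed in 1 library only were thus the ones least often marked by H3K27ac, in either condition: the noDox shares of H3K27ac were 34.1% for the 2-day-only and 42.5% for the noDox-only regions. H4K16ac islands lay in 72.0% and 57.3% of these classes at 2 days. The classes were not matched for width. Over all regions the median width was 2000 bp in 2-day-only, 2400 bp in noDox-only and 4600 bp in shared regions. The part of width in these shares was not tested.

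**Figure D5:**
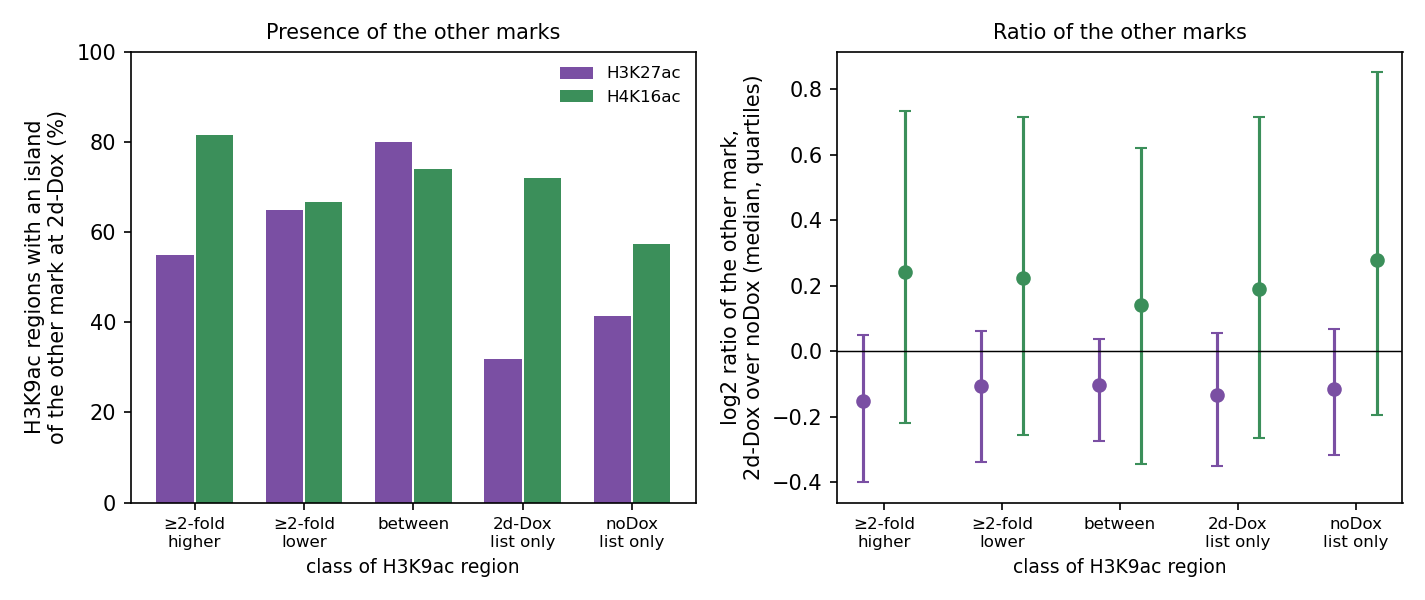
Share of H3K9ac regions of each class that held an island of H3K27ac or H4K16ac at 2d-Dox (left, percent) and the log2 ratio of that mark, 2d-Dox over noDox, in regions with it in both libraries (right, points are medians, bars are quartiles over regions). H3K27ac is present in fewer of the regions listed once, and the medians are below 0 for H3K27ac and above 0 for H4K16ac in every class.

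The 7-day library was read at the same regions, and an island was listed there in 93.2% of all 40420. It is set against the same noDox library, so a noDox count that happened to be low or high moves both ratios, and the times are given side by side only. In the 2160 higher regions, an island was listed at 7 days in 90.1%, with a median log2 ratio over noDox of 1.27 at 2 days and 1.17 at 7 days. In the 4315 lower regions, 84.4% had an island at 7 days, and the medians were -1.32 at 2 days and -0.42 at 7 days. In the remaining regions 94.5% had an island at 7 days, and the medians were -0.076 at 2 days and 0.035 at 7 days. Every 7-day island that touched a region was counted in full. Regions of the 2-day list only had an island at 7 days in 72.4% of 3753 cases, and those of the noDox list only in 60.4% of 4144, both with at least 50 reads at noDox depth.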

How the data were processed

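The submitters' processing notes name hg19, Bowtie2 2.3.5.1, SICER, Picard, cutadapt, FastQC and deepTools; their settings, and how duplicate reads were treated, are not stated in what was used here. Each deposited list holds, per island of 1 library, whole-number counts of antibody and HRP reads, a p-value, an FDR, a log2 fold and a score. The deposited log2 fold equals log2 of antibody over HRP count minus a list-wide constant, with an HRP count of 0 entered as 0.25; that constant gave relative library size. The deposited p-value was recomputed as a Poisson upper tail (largest relative difference 9.09e-13). The deposited score was not used. Ratios divide counts by that size. Depth matching used the noDox list's largest p-value (0.0434) and smallest count (14). Intervals for shares and ratios are exact Clopper-Pearson and for medians order-statistic intervals.

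Bands came from circlize 0.4.16 (hg19) and took islands by midpoint; coordinates are 1-based. Named loci were the 5 highest and 5 lowest by the interval bound nearest 0 (like-length pairs, shared regions), the 5 with most reads (regions in 1 list, shared regions), the 5 highest and lowest bands, and listed bands. Plans for promoters and gene lists were not carried out, as the annotation at hand is on another build. The members and lists were chosen with earlier results of these data known. Code was tested on simulated data. Python 3.11.15, pandas 2.3.3 and scipy 1.17.1 were used.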

Additional observations from a re-analysis of the deposited data

How the results depend on the processing

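Across 18 alternative settings and 11 results, 56 of 93 values stayed within the interval or within 1.5-fold of the reported value, and 37 moved. Of the 19 values that are median log2 ratios, and so could change sign, none did. Overlap of 2-day and of noDox islands, reported as 63.5% and 73.0%, was 63.2% and 73.6% with all deposited 2-day islands, 62.8% and 70.8% at an FDR of at most 0.001, 57.5% and 66.9% when 50% of the shorter island had to overlap, and 61.8% and 71.0% without the top 5% of islands by HRP reads per kb. The median over shared regions (-0.12) was -0.082 after merging islands within 2000 bp, -0.024 per kb of island, -0.13 from 20 reads and -0.077 from 200 reads. Shares past 2-fold (5.34% higher, 10.7% lower) were 0.614% and 0.604% per kb, and 1.02% and 1.55% from 200 reads. Values per kb divide by a length called from the same reads. The like-length median (-0.070) was -0.057 per kb, -0.092 after subtraction of HRP reads, -0.11 at 50% reciprocal overlap and -0.11 at equal coordinates. Pairs past 2-fold were 0.0642% higher and 0.118% lower after centring, 1.57% and 3.95% after subtraction of HRP reads, and 0.879% and 2.72% at 50% overlap; 0% were higher at equal coordinates and 0.150% lower per kb. Regions only in the 2-day and the noDox list (199 and 832) were 3753 and 10591 from 50 expected reads, 0 and 8 from 200, and 338 and 1314 without the top 5% by HRP reads. The SD over bands (0.15) was 0.16 at the stricter FDR, 0.12 in bands with 5000 reads and 0.16 by island length. Centring sets the medians themselves to 0. The causes of these moves were not tested.

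Leaving out a replicate was not possible, as no group has a second library. No paired analysis was possible because each group holds 1 library. Most unmatched regions had under 100 expected reads, and ratios of single islands carry counting intervals of about 0.33 on either side at 100 reads or more.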

Other observations

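The 2 arms of a chromosome did not always move alike. The share of H3K9ac reads on 16p had a log2 ratio, 2 days over noDox, of 0.13 (0.11 to 0.15), while 16q was at 0.0062 (-0.0098 to 0.022). On chromosome 4 the short arm was at 0.036 and the long arm at -0.082. The highest arm was 19p at 0.14, with 53361 reads at 2 days and 35646 in noDox cells, and the lowest was 8p at -0.093, with 103188 at 2 days and 80758 in noDox cells. Arm 17p stood out in both libraries alike, with 6.96 reads per kb and unit of library size at 2 days and 7.14 in noDox cells, but only 2.47 and 2.50 times the HRP control in the same order.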
